A study of Mus musculus with 12 samples.

Results

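Pilra, Pilrb1 and Pilrb2 encode the mouse paired immunoglobulin-like type 2 receptors (PILR), and they are 3 of the 55401 genes in the deposited tables. They were chosen by their levels in duodenum, in an earlier reading of the same 12 libraries. Their duodenum values below are therefore descriptions and carry no test. The gene identifiers were ENSMUSG00000046245 for Pilra, ENSMUSG00000066684 for Pilrb1 and ENSMUSG00000066682 for Pilrb2. RNA came from migratory dendritic cells (DCs), the cells that bring tissue antigen to lymph nodes, and 3 tissues were compared. There were 4 libraries from duodenum, 4 from liver and 4 from pancreas, each made from a pool of 2 mice. All mice were of the B6 strain and 6 to 8 weeks old, and the labels name no transgene, mutation or treatment in any tissue. In every tissue the sorting gate took CD45+ lineage-negative live cells with CD11c, high MHC class II and CD103, and without CD11b, a gate that fits conventional DCs of type 1 (cDC1).

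PILR proteins form a pair of receptors with opposed signals. Pilra, the inhibitory receptor, carries immunoreceptor tyrosine-based inhibitory motifs (ITIMs) that recruit the phosphatases SHP-1 and SHP-2. Pilrb, the activating receptor, has a short tail and signals through the adaptor DAP12 and the kinase Syk. Pilra binds sialylated O-glycans on partner proteins such as CD99, NPDC1, PIANP, COLEC12 and CD8 alpha. Both kinds of receptor are known from neutrophils, monocytes, macrophages and DCs.

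The 3 genes lie side by side on the minus strand of chromosome 5, and the windows around their starts are shown because the 3 starts are near copies of each other. The sequences are RefSeq's for build GRCm38.p6, 300 bases each, with 250 bases before and 50 after the start, on the minus strand, at chr5:137836229-137836528 for Pilra, chr5:137858000-137858299 for Pilrb1 and chr5:137871709-137872008 for Pilrb2. Capitals mark the 8 positions at which Pilrb1 and Pilrb2 differ and, in Pilra, the 1 aligned base that differs from both.
Pilra: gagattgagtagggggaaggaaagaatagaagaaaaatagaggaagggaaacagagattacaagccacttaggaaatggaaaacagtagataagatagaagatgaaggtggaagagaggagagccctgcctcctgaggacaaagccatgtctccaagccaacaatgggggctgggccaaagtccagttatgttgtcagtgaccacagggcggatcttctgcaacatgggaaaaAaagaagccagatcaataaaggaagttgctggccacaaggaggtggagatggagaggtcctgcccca
Pilrb1: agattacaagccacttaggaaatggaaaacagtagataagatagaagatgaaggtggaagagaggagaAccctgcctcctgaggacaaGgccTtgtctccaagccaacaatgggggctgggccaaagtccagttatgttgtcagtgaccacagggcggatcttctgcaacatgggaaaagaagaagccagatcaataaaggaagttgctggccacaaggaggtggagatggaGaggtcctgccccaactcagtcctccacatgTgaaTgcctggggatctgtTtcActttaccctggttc
Pilrb2: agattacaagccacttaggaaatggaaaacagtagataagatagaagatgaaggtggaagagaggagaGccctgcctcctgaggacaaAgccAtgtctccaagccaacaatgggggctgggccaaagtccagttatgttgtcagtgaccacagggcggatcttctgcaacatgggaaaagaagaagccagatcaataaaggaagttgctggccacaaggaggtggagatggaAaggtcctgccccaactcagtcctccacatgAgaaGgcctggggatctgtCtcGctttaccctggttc

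The Pilrb1 and Pilrb2 windows were identical at 292 of 300 bases (97.3%). With a shift of 54 bases, the Pilra window was identical at 242 of 246 aligned bases to that of Pilrb1 (98.4%) and at 244 of 246 to that of Pilrb2 (99.2%). The starts lie 21771 bases apart between Pilra and Pilrb1 and 13709 bases apart between Pilrb1 and Pilrb2 on that build. A search of both strands found the letters TGTGGT, a RUNX motif, once in each of the 3 windows, against 16.8% of 32851 promoter windows of the same length. GGAA, the core of ETS motifs, had 9 matches in Pilra, 5 in Pilrb1 and 6 in Pilrb2, and 96.0% of all windows held it. The AP-1 letters TGANTCA, found in 7.81% of windows, and the nuclear receptor half-site AGGTCA, found in 16.3%, had 0 matches in these 3 windows. No match of one motif overlapped a match of another in these windows. The 3 windows are near copies and the motifs were chosen after the sequences were seen, so the matches are descriptions and no enrichment was tested. The likeness extends into the transcripts. One transcript of Pilrb1 and one of Pilrb2 in the GENCODE vM21 annotation are both 1807 bases long and differ at 76 of them (95.8% identical). Of all 31-base words in annotated Pilrb1 transcripts, 42.8% also occur in Pilrb2, and 49.9% occur in no other gene. For Pilra, 71.5% of such words occur in no other gene, 8.39% occur in Pilrb1 and 7.22% in Pilrb2. The division of reads between Pilrb1 and Pilrb2 is thus uncertain, and their sum is given beside them.

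The 12 libraries held 220.9 to 356.1 M (mega) estimated counts, and duodenum replicate 2 was the deepest. Levels are in TPM, a share of all transcripts that is scaled for transcript length and can be compared between genes. Genes were called by edgeR's quasi-likelihood test at an adjusted p under 0.05. Of all 44624 genes tested, 3.95% were called higher in duodenum and 3.37% higher in liver in the comparison of duodenum over liver. In duodenum over pancreas, 3.94% were called higher in duodenum and 3.76% higher in pancreas. In liver over pancreas, 0.426% were called higher in liver and 0.681% higher in pancreas. The shares rest in part on duodenum replicate 2. Without it, 3268 of 45579 tested genes were called higher in duodenum than in liver, and 3034 higher in duodenum than in pancreas. In either direction, 4807 and 4716 were then called in these 2 comparisons, and 749 in liver over pancreas. A second tool, DESeq2, called 5133, 5074 and 1171 of 44624 genes in duodenum over liver, duodenum over pancreas and liver over pancreas. The cells carried the genes of the gate and of cDC1. Xcr1, a chemokine receptor of cDC1, ranged from 77.4 to 144 TPM in duodenum, 126 to 164 in liver and 82.7 to 97.8 in pancreas, and Itgam, the gene of CD11b, was at most 1.30 TPM in all 12 libraries. Of 12 cDC1 markers, 1 was called higher and 1 lower in duodenum over liver, 3 higher and 2 lower in duodenum over pancreas, and 1 higher in liver over pancreas. Of 5 genes of the gate, Itgae (CD103) was called higher in duodenum over liver, and Itgae and Itgax (CD11c) in duodenum over pancreas. Without duodenum replicate 2, the cDC1 markers called numbered 4 in duodenum over liver, 8 in duodenum over pancreas and 3 in liver over pancreas, and 3 genes of the gate were called in each of the 2 duodenum comparisons. Markers of other cells also differed between tissues. Of 14 markers of type 2 DCs, 8 were called higher and 2 lower in duodenum over liver, and 8 higher and 3 lower in duodenum over pancreas. Their median log2 difference was 2.11 for duodenum over liver and 1.91 for duodenum over pancreas. Their summed level was 112 to 161 TPM in duodenum, 154 to 208 in liver and 207 to 232 in pancreas. Ccr2 made up 68.8% of that sum in liver and 63.1% in pancreas, and Klf4 made up 44.6% of it in duodenum. It ranged from 8.58 to 15.7 TPM in duodenum, 122 to 137 in liver and 125 to 167 in pancreas. Of 13 B and plasma cell markers, 6 were called higher in duodenum over liver and 5 in duodenum over pancreas. They summed to 9675 to 14655 TPM in duodenum, 99.6 to 1437 in liver and 104 to 1705 in pancreas. Igha, the heavy chain gene of IgA, was at 3207 to 5155 TPM in duodenum and at most 3.57 TPM elsewhere. Liver replicate 2 and pancreas replicates 3 and 4 also stood apart by immunoglobulin reads. Without these 3 libraries, 1 and 2 of the cDC1 markers, 11 and 8 of the type 2 DC markers and 9 and 7 of the B and plasma cell markers were called in duodenum over liver and over pancreas. Of all 47218 genes tested in that fit, 2069 and 1712 were called.

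Among markers of cells in which PILR genes are known, 2 of 20 macrophage markers were called higher and 3 lower in duodenum over liver, and 1 higher and 4 lower in duodenum over pancreas. Their sum was 406 to 580 TPM in duodenum, 559 to 758 in liver and 895 to 1030 in pancreas, most of it Lyz2 outside duodenum. Adgre1, a macrophage marker, was called higher in duodenum in both comparisons. Its range was 2.79 to 4.88 TPM in duodenum, 0.582 to 1.24 in liver and 1.02 to 2.01 in pancreas. Of 12 monocyte markers, 2 were called higher and 1 lower in duodenum over liver, and 4 higher and 2 lower in duodenum over pancreas. Their sums were 867 to 1011 TPM in duodenum, 709 to 831 in liver and 170 to 279 in pancreas. Plac8 made up 68.0% of the sum in duodenum, 78.4% in liver and 32.0% in pancreas. Nr4a1 ranged from 82.9 to 166 TPM in duodenum, 7.70 to 10.6 in liver and 25.4 to 53.5 in pancreas. Ms4a6c ranged from 48.0 to 71.0 TPM in duodenum, 17.9 to 26.7 in liver and 12.6 to 15.5 in pancreas. For these genes every duodenum library lay above all others, while 1 and 2 monocyte markers were called lower in duodenum. The list's median log2 difference was -0.0074 for duodenum over liver, 0.04 for duodenum over pancreas and 0.14 for liver over pancreas. Of 14 neutrophil markers, edgeR called 0 in both comparisons, against 1 and 2 at an unadjusted p under 0.05 and 1 and 2 by DESeq2, and their sums ran from 6.34 to 23.8 TPM over all libraries. Of 14 eosinophil and mast cell markers, 1 was called higher and 1 lower in duodenum over liver, and 1 higher and 2 lower in duodenum over pancreas. Of 14 NK and T cell markers, edgeR called 0 in both, with 1 and 0 at an unadjusted p under 0.05 and 1 and 0 by DESeq2. No marker of these lists was at 0 in all 4 libraries of a tissue. The part of any of these cells in the PILR levels was not tested.

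All 3 genes were abundant in duodenum DCs and low in liver and pancreas DCs. Pilra had 5.22, 8.22, 9.32 and 8.13 TPM in the 4 duodenum libraries. It had 0.361, 0.267, 0.611 and 0.490 TPM in liver and 0.268, 0.268, 0.146 and 0.254 TPM in pancreas. Every duodenum library thus lay above every liver and pancreas library, while the ranges of liver and pancreas overlapped. The mean of Pilra was 7.72 ± 1.76 TPM in duodenum, 0.432 ± 0.150 in liver and 0.234 ± 0.0588 in pancreas (SD, n = 4 each). The duodenum mean was 17.9 times the liver mean and 33.0 times the pancreas mean.

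Pilrb1 was the most abundant of the 3 genes in every duodenum library. It had 54.2, 46.0, 59.1 and 50.9 TPM in duodenum. It had 0.201, 0.521, 2.09 and 0.938 TPM in liver and 1.61, 1.74, 0.426 and 0.656 TPM in pancreas. Pilrb2, its near copy, had 26.9, 17.3, 19.6 and 19.1 TPM in duodenum. Pilrb2 had 0.264, 1.02, 0.571 and 0.109 TPM in liver and 0.820, 0.0641, 1.75 and 0.917 TPM in pancreas. For both genes every duodenum library was above every other library, and liver and pancreas overlapped. The sum of Pilrb1 and Pilrb2 had 81.0, 63.3, 78.7 and 70.0 TPM in duodenum, 0.465, 1.54, 2.66 and 1.05 TPM in liver and 2.43, 1.80, 2.18 and 1.57 TPM in pancreas. Its mean was 73.3 ± 8.16 TPM in duodenum, 1.43 ± 0.932 in liver and 2.00 ± 0.382 in pancreas (SD, n = 4 each). The duodenum mean of the sum was 51.3 times the liver mean and 36.7 times the pancreas mean. In bulk samples, fewer cells that use a gene and less RNA per cell cannot be told apart.

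**Figure D1:**
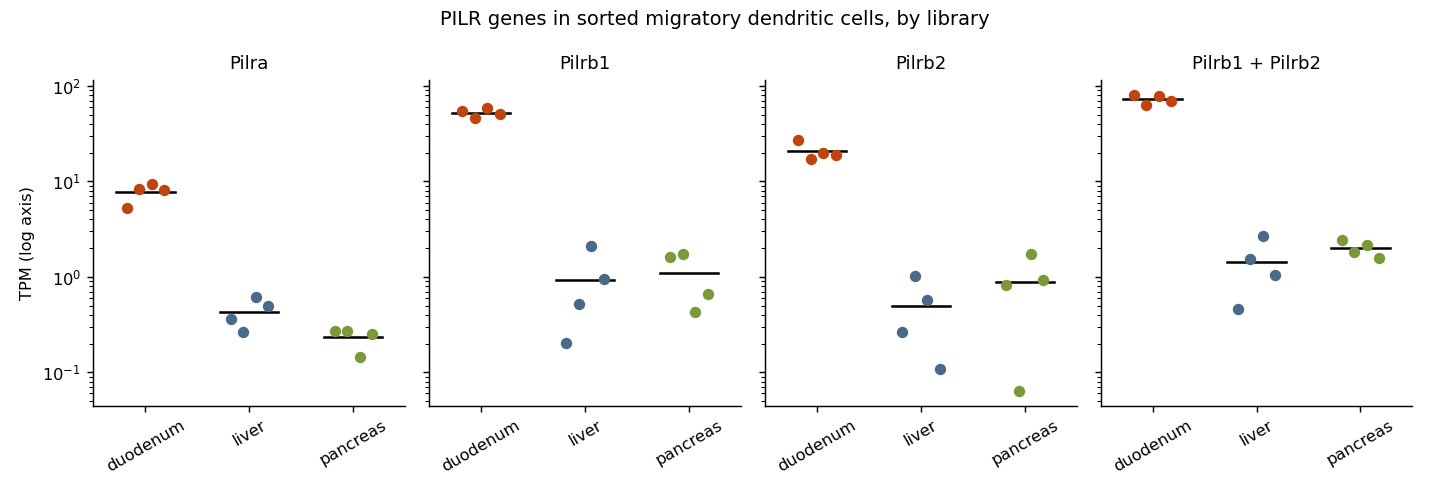
TPM (log axis) of Pilra, Pilrb1, Pilrb2 and the sum of Pilrb1 and Pilrb2, with 1 point per library and a line at the mean of each tissue (n = 4). The duodenum points of Pilra lie between 5.22 and 9.32 TPM and those of the sum between 63.3 and 81.0 TPM, above all liver and pancreas points.

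The estimated counts behind these levels were 1928 to 5081 for Pilra in duodenum, 136 to 265 in liver and 63.7 to 122 in pancreas. For the Pilrb sum they were 14143 to 18230 in duodenum, 105 to 529 in liver and 324 to 523 in pancreas. No liver or pancreas library was at 0 for any of the 3 genes. Pilrb2 had the lowest counts, in pancreas replicate 2 and, with 21.9, in liver replicate 4. In the model fitted across all genes, the log2 difference of duodenum over liver was 4.31 (SE 0.32) for Pilra, 5.93 (SE 0.67) for Pilrb1, 5.55 (SE 0.83) for Pilrb2 and 5.79 (SE 0.46) for the Pilrb sum. The difference of duodenum over pancreas was 5.13 (SE 0.33) for Pilra, 5.67 (SE 0.66) for Pilrb1, 4.58 (SE 0.79) for Pilrb2 and 5.22 (SE 0.44) for the Pilrb sum. The duodenum libraries are shared by these 2 sets of differences. The model puts a lower error on the Pilrb sum than on Pilrb1 or Pilrb2 alone. Without liver replicate 2 and pancreas replicates 3 and 4, the differences of the Pilrb sum were 5.90 and 5.33 and those of Pilra 4.17 and 5.02. On the scale log2(TPM + 1), which pulls low levels together, the differences of Pilra were 2.59 and 2.80.

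The share of Pilrb1 in the Pilrb sum was steady in duodenum and unsteady elsewhere. It was 66.8, 72.6, 75.1 and 72.8% in duodenum. It was 43.2, 33.7, 78.5 and 89.6% in liver and 66.3, 96.4, 19.6 and 41.7% in pancreas. The mean share was 71.8 ± 3.52% in duodenum, 61.3 ± 27.0% in liver and 56.0 ± 33.0% in pancreas (SD, n = 4 each). In pancreas the coefficient of variation was 59.9% for Pilrb1 and 77.7% for Pilrb2, but 19.1% for their sum. In liver it was 88.0% for Pilrb1, 82.0% for Pilrb2 and 65.2% for the sum.

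Liver and pancreas were compared with a test, since the choice of the genes did not use that contrast. With edgeR's quasi-likelihood test and Benjamini-Hochberg adjustment over 44624 genes, none of the 3 genes and not the sum was called at an adjusted p under 0.05. Pilra alone was under 0.05 before adjustment, with a log2 difference of liver over pancreas of 0.82 (SE 0.29, adjusted p = 0.305). The difference was -0.26 (SE 0.55, adjusted p = 0.979) for Pilrb1 and -0.96 (SE 0.71, adjusted p = 0.837) for Pilrb2. For the Pilrb sum it was -0.58 (SE 0.38, adjusted p = 0.787). None of the other tools and settings run, DESeq2 included, called any of the 4. The order of levels was thus duodenum first for each gene, with liver and pancreas not separated by this test. The p-values of this and all later tests measure the spread between pools of mice.

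The balance of the inhibitory and the activating gene was also compared within each library, as the TPM of Pilra over that of the Pilrb sum. Pilra was at 6.44, 12.99, 11.8 and 11.6% of the Pilrb sum in duodenum. It was at 77.7, 17.3, 23.0 and 46.8% in liver and at 11.01, 14.8, 6.71 and 16.1% in pancreas. All 4 liver libraries lay above all 4 pancreas libraries, by a small margin for liver replicate 2. The mean log2 ratio was 1.59 higher in liver than in pancreas (exact two-sided permutation test, p = 0.0286, the smallest p that 4 against 4 libraries allow). Without any 1 library the exact permutation p was 0.0571, the smallest that 3 against 4 allow, and the difference lay between 1.20 and 1.92. Both terms of the ratio are low in these tissues. In liver replicate 1, the library with the highest ratio, Pilra was at 0.361 TPM and the Pilrb sum at 0.465 TPM.

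**Figure D2:**
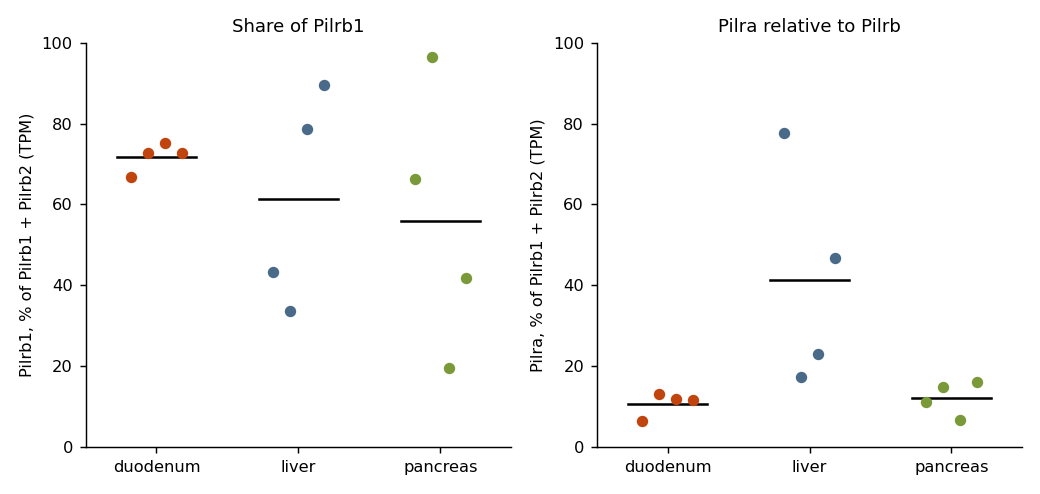
Left, Pilrb1 as a percentage of the sum of Pilrb1 and Pilrb2, and right, Pilra as a percentage of that sum, both from TPM, with 1 point per library and a line at the mean (n = 4 a tissue). The share of Pilrb1 runs from 66.8 to 75.1% in duodenum and from 19.6 to 96.4% in pancreas, and Pilra is at 17.3% of Pilrb or more in every liver library.

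For the genes around the receptors, the same fit was read for lists written from general knowledge, but with earlier results of these data known. Apart from the ligands, most genes named from them are those with the largest differences among the called genes. The counts below are to be read against the shares of all genes called, given above. Those shares depend on the filter for low genes. With a filter of 1 CPM in 4 libraries, 18279 genes were tested. Of these, 4577 were called in either direction in duodenum over liver, 4639 in duodenum over pancreas and 931 in liver over pancreas. In the default fit, the median log2 difference over all genes was -0.10, -0.09 and 0.01 in these 3 comparisons. Unscaled library totals moved the first median to -0.25.

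Among the ligands, Cd8a differed between all 3 tissues and the other 3 genes with a row passed the test in none. Cd8a encodes CD8 alpha, which cDC1 of lymphoid tissues also carry. It had 29.2, 25.8, 39.9 and 33.3 TPM in duodenum, 14.9, 9.42, 11.7 and 13.54 TPM in liver and 1.70, 2.98, 2.34 and 1.97 TPM in pancreas. The 3 ranges did not overlap. By edgeR, the log2 difference of Cd8a was 1.54 (SE 0.23, adjusted p = 0.000656) for duodenum over liver, 3.90 (SE 0.25, adjusted p = 2.99e-07) for duodenum over pancreas and 2.36 (SE 0.23, adjusted p = 5.5e-05) for liver over pancreas. Pianp, a neuronal PILR ligand, ranged from 12.9 to 21.7 TPM in duodenum, 19.1 to 26.7 in liver and 17.3 to 23.1 in pancreas. Npdc1 stayed between 0.961 and 2.99 TPM and Colec12, a scavenger receptor, between 1.26 and 2.06 TPM over the 12 libraries. The symbol Cd99 matched no row, so that ligand is not analysed here. The median log2 difference of the 4 ligands was -0.22 for duodenum over liver, -0.14 for duodenum over pancreas and 0.12 for liver over pancreas.

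Tyrobp, the gene of the adaptor DAP12 through which Pilrb signals, was lower in duodenum, where Pilrb was high. Tyrobp had 289, 218, 265 and 245 TPM in duodenum, 719, 591, 862 and 774 TPM in liver and 687, 722, 799 and 778 TPM in pancreas. All duodenum libraries lay below all others, and liver and pancreas overlapped. By edgeR, Tyrobp fell by 1.37 on the log2 scale in duodenum against liver (SE 0.17, adjusted p = 0.000122) and by 1.48 against pancreas (SE 0.17, adjusted p = 4.62e-05). The lowest Tyrobp level in duodenum was 218 TPM, against a highest level of 81.0 TPM for the Pilrb sum there. These are RNA levels, and other receptors also couple to DAP12, so whether the adaptor suffices for Pilrb was not tested.

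Of the 19 signalling partners, 2 were called higher and 2 lower in duodenum over liver, 1 higher and 3 lower in duodenum over pancreas, and 0 higher and 1 lower in liver over pancreas. Their median log2 differences were -0.00051, 0.05 and -0.09. Fcer1g, the FcRgamma adaptor, ranged from 19.0 to 39.4 TPM in duodenum, 41.6 to 72.9 in liver and 175 to 221 in pancreas. Its log2 difference was -2.63 for duodenum over pancreas (SE 0.26, edgeR adjusted p = 1.72e-05) and -1.88 for liver over pancreas (SE 0.26, adjusted p = 0.00129), while -0.75 for duodenum over liver missed the threshold (adjusted p = 0.0927). Syk, the kinase downstream of DAP12, was called higher against liver with a log2 difference of 0.64 (SE 0.17, adjusted p = 0.0324). Without liver replicate 2 or 4, or duodenum replicate 1 or 3, that call of Syk was lost (adjusted p from 0.0501 to 0.105). Hcst, the gene of the adaptor DAP10 and chosen after its values were seen, fell by 0.98 against liver and by 0.91 against pancreas (adjusted p = 0.0221 and 0.0323). Without liver replicate 2 and pancreas replicates 3 and 4, the partners called numbered 1, 3 and 0 in the 3 comparisons, and the calls lost include Syk against liver (adjusted p = 0.0604) and Fcer1g in liver over pancreas (adjusted p = 0.0718).

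The phosphatases on the Pilra side were called in none of the 3 comparisons. Ptpn6, which encodes SHP-1, ranged from 84.0 to 127 TPM in duodenum, 111 to 137 in liver and 134 to 145 in pancreas. Ptpn11, which encodes SHP-2, ranged from 7.62 to 8.61 TPM in duodenum, 7.08 to 8.47 in liver and 6.27 to 8.28 in pancreas. The log2 differences of Ptpn6 were -0.06 (SE 0.15), -0.32 (SE 0.16) and -0.27 (SE 0.16), and those of Ptpn11 0.24 (SE 0.14), 0.21 (SE 0.14) and -0.04 (SE 0.14), each in the order duodenum over liver, duodenum over pancreas and liver over pancreas.

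**Figure D3:**
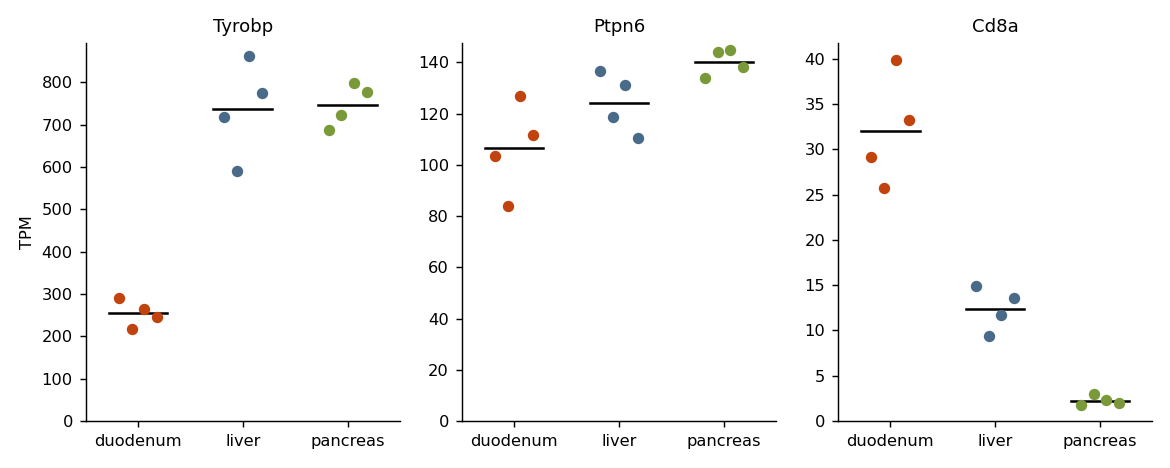
TPM of Tyrobp (adaptor of Pilrb), Ptpn6 (phosphatase recruited by Pilra) and Cd8a (a ligand), with 1 point per library, a line at the mean (n = 4) and axes that start at 0. Tyrobp is at 218 to 289 TPM in duodenum and at 591 to 862 TPM in liver, and the 3 ranges of Cd8a do not overlap.

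PILR binding depends on sialylated O-glycans, so the 27 genes of their synthesis and removal were counted. The list also holds some enzymes that act on other glycans. In duodenum over liver 1 was called higher and 3 lower, in duodenum over pancreas 1 higher and 4 lower, and in liver over pancreas edgeR called 0, with 5 at an unadjusted p under 0.05 and 1 called by DESeq2. In duodenum over liver and over pancreas DESeq2 called 8 and 11 of the list, against 5133 and 5074 of all 44624 genes. Without duodenum replicate 2, edgeR called 4 and 9, against 4807 and 4716 of all 45579 genes. Without the 3 libraries of immunoglobulin reads it called 2 and 3, against 2069 and 1712 of all 47218 genes. The median log2 difference of the list was -0.09, 0.24 and 0.05 in these comparisons. St3gal4, a sialyltransferase that acts mostly on other glycans, ranged from 30.7 to 38.6 TPM in duodenum, 64.5 to 86.0 in liver and 64.9 to 87.2 in pancreas. It fell by 0.92 against liver (SE 0.15, adjusted p = 0.0019) and by 1.10 against pancreas (SE 0.15, adjusted p = 0.000397). St6gal1, which sialylates N-glycans, fell by 0.95 against liver (SE 0.24, adjusted p = 0.0272) and by 1.70 against pancreas (SE 0.25, adjusted p = 0.000518). Without any 1 of liver replicates 1, 2 and 3 or duodenum replicates 1, 2 and 4, the St6gal1 call against liver was lost (adjusted p of 0.0602 or more), as it was without liver replicate 2 and pancreas replicates 3 and 4 together (adjusted p = 0.0949). Gcnt1, the core 2 branching enzyme of O-glycans, rose by 1.57 against pancreas (SE 0.23, adjusted p = 0.000568) and had a difference of 0.70 against liver (adjusted p = 0.0843). Neu1, a sialidase that removes sialic acid, rose by 0.96 against liver (SE 0.22, adjusted p = 0.0132) and had a difference of 0.71 against pancreas (adjusted p = 0.0614).

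Other myeloid receptors moved in both directions in duodenum. Of 24 receptors, most of which carry an ITIM, 7 were called higher and 5 lower in duodenum over liver, 5 higher and 7 lower in duodenum over pancreas, and 0 higher and 2 lower in liver over pancreas. The medians were 0.18, 0.07 and -0.33. Without the 3 libraries of immunoglobulin reads, 10 and 9 were called in duodenum over liver and over pancreas. Fcgr2b, the inhibitory IgG receptor, ranged from 2.16 to 5.34 TPM in duodenum, 26.4 to 46.7 in liver and 85.0 to 108 in pancreas. Its 3 ranges did not overlap, and its log2 difference was -3.13 (SE 0.27, edgeR adjusted p = 6.08e-06), -4.63 (SE 0.29, adjusted p = 2.46e-07) and -1.50 (SE 0.25, adjusted p = 0.0069) in the 3 comparisons. Clec4a2, an inhibitory C-type lectin, ranged from 3.20 to 6.75 TPM in duodenum, 0.496 to 2.42 in liver and 7.21 to 16.2 in pancreas. It was higher in duodenum than in liver (1.82, SE 0.42, adjusted p = 0.015) and lower in liver than in pancreas (-3.06, SE 0.44, adjusted p = 0.00204). Siglecg, an inhibitory sialic acid receptor, fell by 1.08 against liver and by 1.58 against pancreas (adjusted p = 0.00223 and 8.61e-05). Clec1a, a C-type lectin, fell by 1.57 and by 0.92 (adjusted p = 2.21e-05 and 0.00138). Without liver replicate 2 and pancreas replicates 3 and 4, Fcgr2b was no longer called in liver over pancreas (adjusted p = 0.174), nor Clec1a in duodenum over pancreas (adjusted p = 0.0606).

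Of 28 tested receptors, most of which couple to DAP12 or FcRgamma as Pilrb does, 3 were called higher and 2 lower in duodenum over liver, 2 higher and 5 lower in duodenum over pancreas, and 0 higher and 1 lower in liver over pancreas. DESeq2 called 10 and 9 in the 2 duodenum comparisons, against 5133 and 5074 of all 44624 genes. Without duodenum replicate 2, edgeR called 8 and 8, against 4807 and 4716 of all 45579 genes. The medians were -0.29, 0.01 and -0.10. At most 15 of the 28 were under 1 TPM in all 4 libraries of a tissue. Cd300c, an activating CD300 receptor, ranged from 4.71 to 8.08 TPM in duodenum, 27.2 to 32.5 in liver and 20.7 to 36.8 in pancreas. It fell by 2.18 against liver (SE 0.22, adjusted p = 3.24e-05) and by 2.27 against pancreas (SE 0.22, adjusted p = 1.5e-05). Its relative Cd300c2 fell by 0.60 and by 0.70 (adjusted p = 0.0185 and 0.00603). The Cd300c2 call against liver was lost without any 1 of liver replicates 1, 3 and 4 or duodenum replicates 1 and 4 (adjusted p from 0.0527 to 0.0967), and that against pancreas without the 3 libraries of immunoglobulin reads (adjusted p = 0.104).

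**Figure D4:**
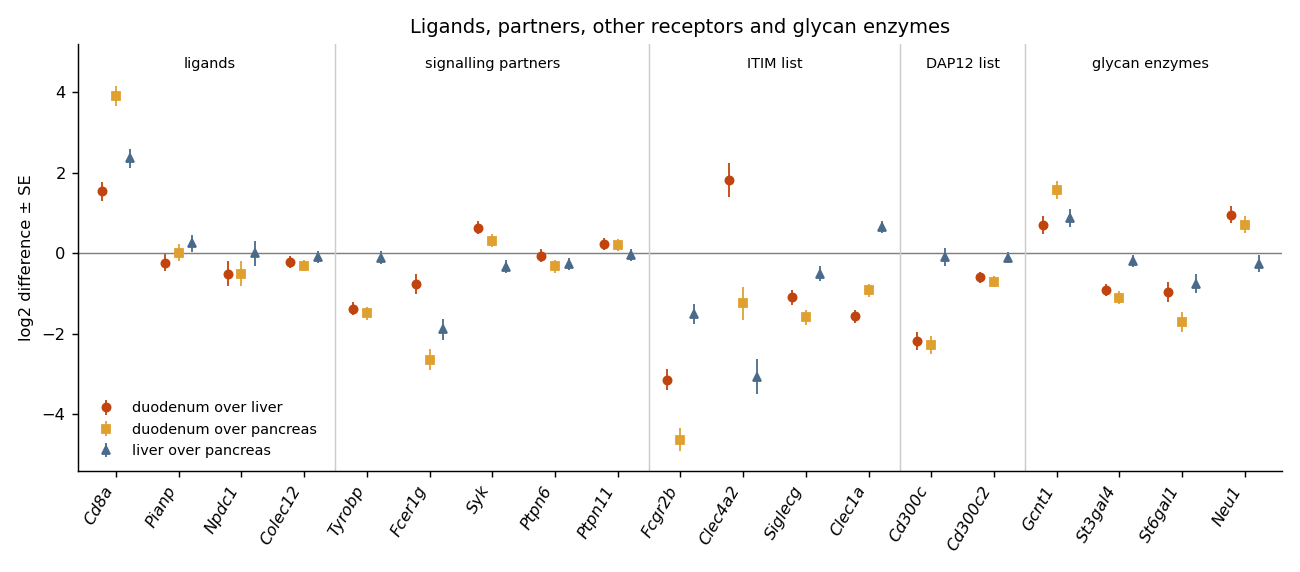
Log2 difference ± SE from the edgeR fit for PILR ligands, signalling partners, receptors of the ITIM list and of the DAP12 or FcRgamma list, and glycan enzymes, in 3 comparisons. Cd8a lies at 1.54 and 3.90 in duodenum over liver and over pancreas, Tyrobp at -1.37 and -1.48, and Fcgr2b at -3.13 and -4.63.

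In the duodenum comparisons, the genes on either side of the PILR genes differed far less. The PILR genes were chosen by their duodenum levels and these neighbours were not, so that contrast is a description. Of the 6 nearest protein-coding genes on each side, in the RefSeq order, 11 of 12 were tested and Smok3b was not. In duodenum over liver edgeR called 0 of the 11, with 5 at an unadjusted p under 0.05 and 2 called by DESeq2. In duodenum over pancreas it called 2, both higher in duodenum. In liver over pancreas it called 0, with 1 at an unadjusted p under 0.05 and 0 called by DESeq2. The median log2 difference of the 11 was -0.30 for duodenum over liver, -0.14 for duodenum over pancreas and 0.16 for liver over pancreas.

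Zcwpw1, a histone reader gene known from meiosis, is the next gene beyond Pilra, and its annotated end overlaps that of Pilra by 670 bases on the opposite strand. It had 3.78, 4.63, 3.76 and 5.17 TPM in duodenum, 2.60, 3.94, 3.03 and 2.21 TPM in liver and 3.56, 2.35, 2.37 and 2.34 TPM in pancreas. Duodenum lay above pancreas in all libraries and overlapped liver. Its log2 difference was 0.79 for duodenum over pancreas (SE 0.21, edgeR adjusted p = 0.0295) and 0.72 for duodenum over liver (SE 0.21, adjusted p = 0.0502). The call was lost without duodenum replicate 4 or any 1 of pancreas replicates 2, 3 and 4 (adjusted p from 0.0547 to 0.0872), and with the 3 libraries of immunoglobulin reads left out (adjusted p = 0.187). Agfg2, the sixth gene on that side, had a difference of 0.58 for duodenum over pancreas (SE 0.15, adjusted p = 0.0287). Its call was lost without any 1 of duodenum replicates 1, 3 and 4 or pancreas replicates 1, 3 and 4 (adjusted p from 0.0574 to 0.092). On the Pilrb2 side, Cyp3a13, a cytochrome P450 gene, was at 0.0549 to 0.412 TPM over all libraries. Whether the reads were counted by strand is not given, so reads of Pilra and Zcwpw1 in their overlap cannot be told apart. The antisense genes Gm36551 and Gm43495 overlap Pilrb1 by 1062 bases and Pilrb2 by 456 bases. They reached at most 1.24 and 0.196 TPM in any library.

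**Figure D5:**
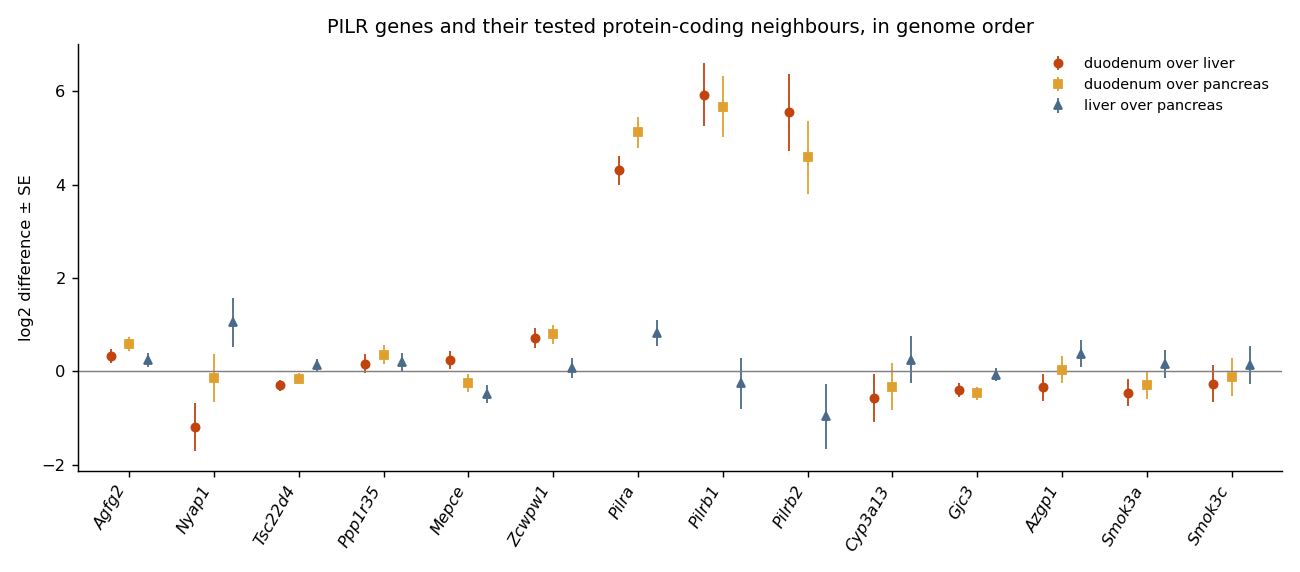
Log2 difference ± SE from the edgeR fit for Pilra, Pilrb1, Pilrb2 and the 11 tested protein-coding neighbours in their order on chromosome 5, in 3 comparisons. The duodenum differences of the 3 PILR genes lie at 4.31 or above, and those of the neighbours run from -1.19 for Nyap1 to 0.79 for Zcwpw1.

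Other genes had a pattern over the 12 libraries close to that of the PILR genes. Likeness was Pearson's r of log2 CPM (counts scaled to library size, with a prior count of 2) among 8321 genes whose mean reached 10 CPM in at least 1 tissue. The 4 duodenum libraries stand apart from the other 8, so r mainly reflects that split, and it is given as a description. For Pilra the 6 most similar genes were Taf7, a subunit of the general transcription factor TFIID (r = 0.997), Prdx5, a peroxiredoxin (0.981), Vcl, the adhesion protein vinculin (0.980), Tpm2, a tropomyosin (0.977), Fkbp4, an HSP90 cochaperone (0.974), and Mical2, an actin oxidase (0.974). Their differences were smaller than that of Pilra. Taf7 averaged 10.4 ± 0.648 TPM in duodenum, 6.62 ± 0.289 in liver and 5.89 ± 0.789 in pancreas (SD, n = 4 each). Tpm2 averaged 46.3 ± 5.42 TPM in duodenum, 6.96 ± 1.51 in liver and 3.16 ± 0.964 in pancreas (SD, n = 4 each).

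For the Pilrb sum the 6 were Psph, an enzyme of serine synthesis (r = 0.983), Junb, a subunit of AP-1 (0.981), Cpm, the peptidase carboxypeptidase M (0.980), Ccrl2, an atypical chemoattractant receptor (0.979), Vps18, a subunit of endosomal tethering complexes (0.978), and Cyp26b1, which breaks down retinoic acid (0.978). Junb averaged 934 ± 143 TPM in duodenum, 148 ± 6.47 in liver and 179 ± 33.3 in pancreas (SD, n = 4 each). Cyp26b1 averaged 20.5 ± 6.55 TPM in duodenum, 0.425 ± 0.321 in liver and 0.316 ± 0.168 in pancreas (SD, n = 4 each), so its levels outside duodenum were as low as those of the PILR genes. Cpm averaged 6.73 ± 1.60 TPM in duodenum, 0.367 ± 0.0654 in liver and 0.521 ± 0.114 in pancreas (SD, n = 4 each). By Spearman's rho, 1 of the 6 genes of Pilra and 0 of the 6 of the Pilrb sum were again among the first 6. Pilra and the Pilrb sum themselves had r = 0.937 over the 12 libraries, and 0.16 for their deviations from the tissue means. The deviations of Pilrb1 and Pilrb2 had r = -0.28.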

How the data were processed

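PolyA RNA of sorted migratory DCs was sequenced in 12 libraries, 4 each from duodenum, liver and pancreas. Reads were quantified with kallisto, and the build was GRCm39, per the submitters' processing notes. Not given in the sources used here are its version, transcript index, annotation and strand setting. Estimated counts and TPM, which are scaled for length and depth, were deposited by the authors as separate tables. How kallisto shares reads between near-identical transcripts affects Pilrb1 and Pilrb2, whose sum was also fitted as 1 row.

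The estimated counts were rounded and fitted in edgeR 4.0.16 (R 4.3.3), with filterByExpr at a minimum count of 10, TMM scaling and 1 robust quasi-likelihood fit of 3 tissue means to all libraries. A gene was called where its Benjamini-Hochberg adjusted p over 44624 genes was under 0.05. The SE is the absolute log2 difference over the square root of F. TPM ratios were tested with an exact permutation test. The test across genes was tested on simulated data. Alternatives used limma 3.58.1, DESeq2 1.42.0, other scalings and filters, and fits without each library. All 12 value columns of each table had a sample.

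Promoter windows and gene names came from RefSeq tables of GRCm38.p6, matched by symbol for all 3 PILR genes. Neighbour order also came from a RefSeq table, and transcripts and gene overlaps from GENCODE vM21. Motifs were chosen after the sequences were seen. Of 216 list symbols, 213 had a row. One symbol had several rows, and its row of highest mean TPM was used. The PILR genes and the lists were chosen with earlier results of these data known. The lists covered PILR ligands, signalling partners, sialyl O-glycan enzymes, ITIM and DAP12 or FcRgamma receptors, and markers of the gate, cDC1, type 2 DCs, macrophages, monocytes, neutrophils, eosinophils and mast cells, NK and T cells, and B and plasma cells. The genes named are the PILR genes, Tyrobp, Ptpn6, Ptpn11, Syk, every ligand, up to 4 called genes of each other PILR list by size of difference whose higher tissue averaged 10 CPM or more, the 6 most similar genes for Pilra and for the Pilrb sum, and 6 neighbours on each side. Marker genes and Hcst were named after their values were seen. Some genes that the rule names are not reported here.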

Additional observations from a re-analysis of the deposited data

Results flagged for a closer look

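Each of 150 groups of 4 libraries was examined for a library far from the nearest other. A group was marked where that gap, divided by the range of the 4, exceeded Dixon's critical value for 4 libraries. This marked 11 groups. Chance marks about 1 group in 20. Pilra was at 0.146 TPM in pancreas replicate 3, against 0.254 to 0.268 TPM in the other pancreas libraries. The Pilrb sum, the share of Pilrb1 and the ratio of Pilra to Pilrb had no such library.

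Among genes with a pattern like that of the Pilrb sum, Ccrl2 was at 13.9 TPM in duodenum replicate 4, against at most 20.7 TPM in the other duodenum libraries. Cyp26b1 was at 0.566 TPM in pancreas replicate 3, against 0.203 to 0.263 TPM in the others. Of the ligands, Pianp was at 19.1 TPM in liver replicate 4, against 26.3 to 26.7 TPM in the others, and Colec12 at 1.79 TPM in duodenum replicate 2, against 1.26 to 1.32 TPM. Clec1a was at 4.44 TPM in duodenum replicate 2, against 5.91 to 6.10 TPM.

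Of the neighbours, Agfg2 was at 15.2 TPM in duodenum replicate 3, against 12.7 to 13.1 TPM, and Zcwpw1 at 3.56 TPM in pancreas replicate 1, against 2.34 to 2.37 TPM. Azgp1 was at 3.36 TPM in liver replicate 1, against 1.61 to 1.81 TPM. Smok3b was at 0.0486 TPM in liver replicate 4, against at most 0.00556 TPM, and at 0.00331 TPM in pancreas replicate 2 and listed at 0 in the others.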

How the results depend on the processing

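No setting called Pilra, Pilrb1, Pilrb2 or the Pilrb sum between liver and pancreas. Pilrb1 lay between -1.10 and 0.0758 there without 1 library and changed sign, with 0.0758 without liver replicate 1 and 0.0755 without pancreas replicate 2. The ratio of Pilra to Pilrb was 1.31 higher in liver with 0.1 TPM added to both terms, and 1.20 to 1.92 without 1 library, where the smallest p allowed misses the threshold. The duodenum differences kept their sign in every setting run. On log2(TPM + 1), those over liver were 2.59 for Pilra, 4.87 for Pilrb1, 3.88 for Pilrb2 and 5.01 for the sum, and those over pancreas 2.80 for Pilra and 4.72 for Pilrb1. On log2(TPM + 0.1), Pilra was at 3.89 over liver and 4.54 over pancreas. A larger pseudocount shrinks differences of low genes by construction. Pilrb1 over liver lay between 5.64 and 6.81 without 1 library, the highest without liver replicate 3, and Pilrb2 over pancreas was 5.78 without liver replicate 2 and pancreas replicates 3 and 4.

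Same-numbered libraries did not deviate together (r from -0.0188 to 0.0473 in 12 pairs of libraries over 5000 genes). That cannot settle whether the numbers pair the samples, since cells of different tissues from the same mice need not deviate together. With the replicate block, liver over pancreas was 0.75 for Pilra, -0.50 for Pilrb1, -0.92 for Pilrb2 and -0.69 for the sum, none of them called, and calls over all genes numbered 2931 for duodenum over liver, 3125 for duodenum over pancreas and 436 for liver over pancreas. The call of Zcwpw1 in duodenum over pancreas was lost with the block (adjusted p = 0.068) and with library totals (0.065), and that of Agfg2 with only both tissues fitted (0.0669). Against liver, Syk lost its call with limma on log2(TPM + 0.1) (adjusted p = 0.075), and St6gal1 and Cd300c2 lost theirs with DESeq2 size factors (0.0595 and 0.0732).

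In the default fit 3265 genes were called in duodenum over liver, 3437 in duodenum over pancreas and 494 in liver over pancreas. DESeq2 called 5133 in duodenum over liver. Without the 3 libraries of immunoglobulin reads the counts were 2069, 1712 and 177, with fewer samples in the fit. In liver over pancreas, library totals gave 820, DESeq2 1171 and a filter of 1 CPM in 4 libraries 931. Leaving out 1 library gave 343 to 749, the highest without duodenum replicate 2. Of the genes on the 5 PILR lists, 5 were called in liver over pancreas by default, 11 with library totals, 10 with DESeq2, 11 with the 1 CPM filter, 9 with only both tissues fitted, 8 and 9 with limma on log2(TPM + 0.1) and log2(TPM + 1), 3 without the 3 libraries and 4 to 10 without 1 library. The cause was not tested. The share of calls higher in duodenum than in liver was 54.0% by default, 36.5% with library totals, 35.2% with limma on log2(TPM + 0.1), 64.7% with DESeq2 size factors and 68% without duodenum replicate 2. Without that library, 64.3% of calls were higher in duodenum than in pancreas, against 51.1% by default.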
